A study of Mus musculus with 20 samples.

Results

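Livers of male ob/ob mice that breathed PM2.5 while drinking metformin were compared with livers of male ob/ob mice that drank metformin without PM2.5. Each group held 5 mice, which makes 10 of the 20 arrays of the study, and the members were taken from the group names in the labels. All 20 mice carry the ob/ob genotype, which removes the satiety hormone leptin and makes mice obese and diabetic, so none of the groups is lean. The mice that breathed PM2.5, fine airborne particles, spent 6 hours a day in an exposure chamber for 2 weeks, and metformin was given in the drinking water at a dose set by body weight. No air is stated for the mice on metformin alone, so a stay in the chamber and the particles themselves cannot be told apart. The other 2 groups of 5 mice, PM2.5 without metformin and filtered air, show where the particle difference differs without the drug. Age, the amount of the metformin dose and the hour of collection are not given in the sources used here, and the labels pair no mice across groups. Mice are numbered within a group in the order of the samples. In the main fit, the p-value of a gene sets its difference against the spread between mice within groups, taken over all 20 mice.

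Metformin is a drug against type 2 diabetes that acts largely on the liver, where it lowers glucose output and inhibits complex I of the mitochondrial respiratory chain. The liver also makes fat from sugar under the control of insulin, and in ob/ob mice this fat synthesis runs high. Inhaled particles are thought to act on the liver largely through signals carried in the blood, among them inflammatory and stress hormone signals. Secreted proteins are folded in the endoplasmic reticulum by chaperones, whose genes are raised by the unfolded protein response when folding falls behind.

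Signal is given on the log2 scale as deposited, where a step of 1 is a doubling. The arrays carry 5222 probe sets that the annotation marks as negative controls, and their signal served as the background against which each finding was set. Over the 10 arrays the mean of their medians was 4.55 and the mean of their 95th percentiles was 8.49. A gene whose higher group mean lies below 8.49 is called dim here. The negative-control median was 4.59, 4.79, 4.46, 4.69 and 4.44 in mice 1 to 5 of PM2.5 with metformin, against 4.51, 4.49, 4.54, 4.52 and 4.45 in mice 1 to 5 of metformin alone. Mice 2 and 4 of PM2.5 with metformin were the highest of all 20 arrays, and the groups overlapped. The difference in means was 0.089 (exact permutation test over 252 splits, two-sided, p = 0.254, adjusted p over the 3 planned summaries = 0.381).

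Mice 2 and 4 also stood apart in their genes. Their correlation with the metformin arrays over all tested genes lay between 0.972 and 0.978, against 0.982 to 0.989 for mice 1, 3 and 5. Saa1, an acute-phase protein of the inflamed liver, had 10.50, 14.71, 10.11, 15.30 and 11.30 in PM2.5 with metformin, against 13.02, 13.33, 12.93, 13.01 and 13.44 in metformin alone. Mice 2 and 4 thus lay above every metformin mouse and mice 1, 3 and 5 below every metformin mouse, and the group difference was -0.76 ± 0.93 (SE, adjusted p = 0.626, limma). Lcn2, a secreted iron-scavenging protein of the same response, was also highest in mice 2 and 4, at 17.02 and 17.54, with the other 3 mice between 14.75 and 16.03 and the metformin mice between 15.25 and 16.90. Most counts below, and the genes called with all mice, are given with and without these 2 mice. The counts of 2-fold and of non-overlapping genes are given with all mice only. A smaller group also makes a call harder to reach. A missed threshold without mice 2 and 4 therefore does not by itself show that a difference rested on them. The part of the 2 mice in the differences between groups was not otherwise tested.

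**Figure D1:**
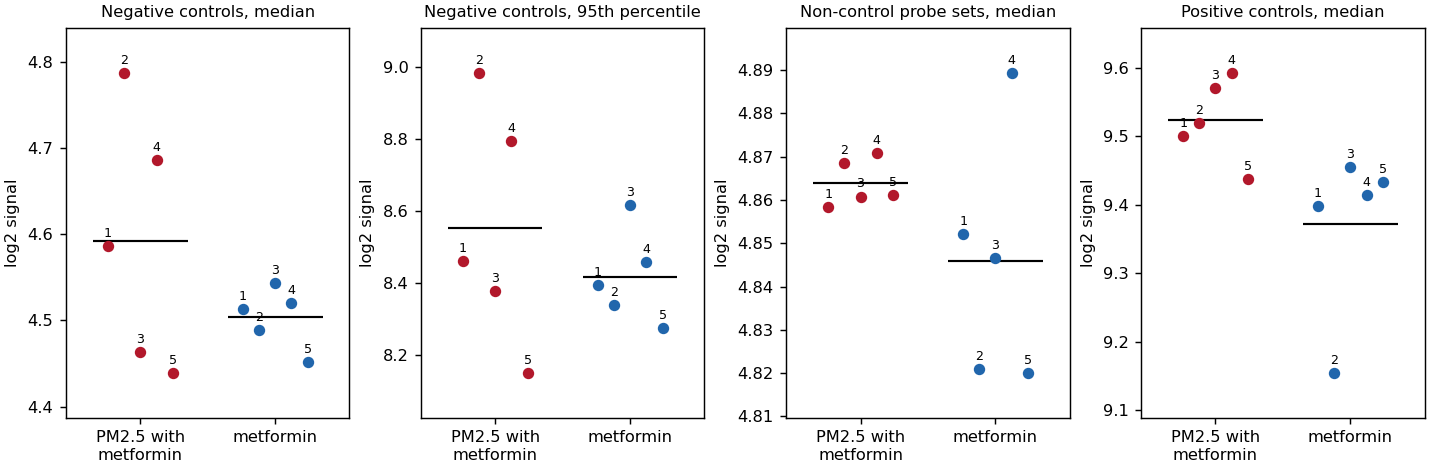
Array summaries in log2 signal for the 5 mice of PM2.5 with metformin (red, left) and the 5 mice of metformin alone (blue, right), with mouse numbers and group means as bars, on axes that do not start at 0. Mice 2 and 4 of PM2.5 with metformin had the highest negative-control signal, while the gene medians of all 5 mice of that group lay between 4.86 and 4.87.

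Probe sets marked as positive controls and as added control RNA (ERCC) were also compared, an addition made after seeing the data. Their median was 9.44 to 9.59 in PM2.5 with metformin, against 9.16 to 9.46 in metformin alone, a difference of 0.15 (exact permutation p = 0.0159, adjusted p over all 6 summaries = 0.0476). The ERCC median was 3.36 to 3.49 in PM2.5 with metformin, against 3.53 to 3.70 in metformin alone, with no overlap (difference -0.19, exact permutation p = 0.00794, adjusted p = 0.0476). The medians of the non-control probe sets differed by 0.018 (exact permutation p = 0.214). The hepatocyte genes of the marker list were bright in every mouse: the summed signal of the 12 tested of 14 was 21.08 to 21.19 in PM2.5 with metformin and 21.12 to 21.23 in metformin alone.

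Of 11703 genes tested, 1935 (16.5%) differed at an adjusted p under 0.05 (limma, 1 model of all 20 arrays), a count referred to below as called. Of these, 1149 (9.82%) were higher and 786 (6.72%) lower in PM2.5 with metformin. Each list count below is to be set beside these 2 shares. The median difference over all tested genes was 0.02, and that over the called genes was 0.69 for the higher and -0.69 for the lower. A difference of at least 2-fold was seen for 148 higher and 114 lower genes. The values of the groups did not overlap for 921 of the called genes. Over all tested genes 9.42% did not overlap, 5.6% with a higher and 3.82% with a lower mean.

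The calls leaned towards bright genes. The higher group mean exceeded the 95th percentile of the negative controls for 1352 called genes, 69.9%, against 45.3% of the tested genes. For 45 called genes the lower group mean lay at or below the negative-control median, so that their differences are floored by background, and for 5 both means did. With the negative-control median as a covariate 1011 genes (8.64%) were called, 662 higher (5.66%) and 349 lower (2.98%), of which 941 were among the 1935. Without mice 2 and 4 of PM2.5 with metformin, 508 (4.34%) were called, 370 higher (3.16%) and 138 lower (1.18%), of which 462 were among the 1935. All 1935 genes kept their sign without those mice, with a median ratio of the differences of 0.78. In the 10 arrays alone 1038 (8.87%) were called, 668 higher (5.71%) and 370 lower (3.16%), and without mouse 4 of PM2.5 with metformin 1146. The median standard deviation between mice was 0.30 in PM2.5 with metformin (0.23 without mice 2 and 4) and 0.25 in metformin alone.

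**Figure D2:**
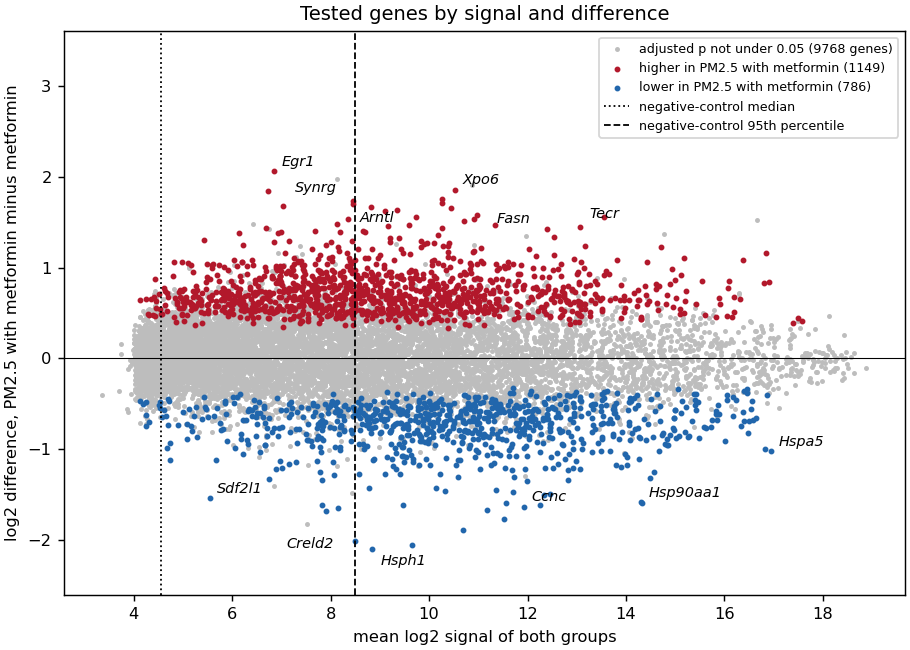
Difference between PM2.5 with metformin and metformin (vertical axis, log2) against the mean signal of both groups (horizontal axis, log2) for the 11703 tested genes, with called genes in red and blue. The dotted and dashed lines mark the negative-control median, 4.55, and 95th percentile, 8.49, and most called genes lie to the right of the dashed line.

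Synrg and Xpo6 had the lowest p-values of the rises described here. Synrg, an adaptor that binds the clathrin adaptor complex at the Golgi, had 8.999, 9.33, 9.16, 10.11 and 9.01 in PM2.5 with metformin, against 7.56, 7.34, 7.89, 7.51 and 7.64 in metformin alone. Every mouse with particles lay above every mouse without. The difference was 1.73 ± 0.18 (SE, 3.33-fold, adjusted p = 2.28e-05, limma), and 1.47 without mice 2 and 4 (adjusted p = 4.85e-05). Its p was the lowest of all tested genes.

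Xpo6, the exportin that carries actin out of the nucleus, had 11.13, 11.81, 11.49, 11.96 and 10.91 in PM2.5 with metformin, against 9.83, 9.54, 9.60, 9.58 and 9.46 in metformin alone. The groups did not overlap, and all 10 values lay above the 95th percentile of the negative controls. The difference was 1.86 ± 0.20 (adjusted p = 2.85e-05), and 1.58 without mice 2 and 4 (adjusted p = 0.00108). Ptprf, a receptor tyrosine phosphatase that can act on the insulin receptor, had 11.54, 11.25, 11.004, 11.57 and 10.19 in PM2.5 with metformin, against 9.36, 9.40, 9.18, 9.65 and 9.42 in metformin alone. It rose by 1.71 ± 0.25 (adjusted p = 0.000565), again with no overlap, and by 1.504 without mice 2 and 4 (adjusted p = 0.0107).

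Of the 15 tested members of the list of membrane traffic and nuclear export, 8 were called higher and 2 lower, with a median of 0.46 against 0.02 over all tested genes, of which 9.82% were called higher and 6.72% lower. With the covariate 7 were higher and 1 lower, and without mice 2 and 4, 3 were higher and 0 lower. The list was drawn up with earlier results of these data known, so its count describes the list only.

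The other genes with large rises above the control level did varied work. Arntl, also called Bmal1, the activating transcription factor of the circadian clock, had 8.77, 8.94, 9.86, 9.27 and 9.64 in PM2.5 with metformin, against 7.97, 6.75, 7.35, 7.77 and 8.13 in metformin alone. The groups did not overlap, and the difference was 1.70 ± 0.26 (adjusted p = 0.000583), 1.83 without mice 2 and 4 (adjusted p = 0.00741). Zfp512b, a zinc finger protein, rose by 1.67 (adjusted p = 0.000583), Zdhhc4, an enzyme that attaches palmitate to proteins, by 1.62 (adjusted p = 0.000584) and Fam25c by 1.75 (adjusted p = 0.00462), all 3 without overlap. Cyp2j9, a cytochrome P450 of fatty acid oxidation, rose by 1.58 (adjusted p = 0.00358), although metformin mice 1 and 2, at 11.15 and 11.27, lay above mouse 5 of PM2.5 with metformin, at 10.99. Fam25c and Cyp2j9 missed the threshold without mice 2 and 4, with adjusted p of 0.0604 and 0.0579, while Zfp512b (1.38, adjusted p = 0.012) and Zdhhc4 (1.53, adjusted p = 0.0118) passed it.

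Gabbr2, a subunit of the GABA-B receptor, had 10.51, 13.30, 10.35, 10.91 and 11.30 in PM2.5 with metformin, against 11.07, 9.47, 9.12, 9.48 and 8.96 in metformin alone. The groups overlapped through metformin mouse 1. The difference was 1.65 ± 0.48 (adjusted p = 0.0226), and it missed the threshold without mouse 2 of PM2.5 with metformin (1.15, adjusted p = 0.0656) or without metformin mouse 3 (0.0511) or 5 (0.0616), and without mice 2 and 4 together (0.154). Pmvk, an enzyme of cholesterol synthesis, differed by 1.64 ± 0.48 (adjusted p = 0.0233) and by 2.22 without mice 2 and 4 (adjusted p = 0.021). It missed the threshold without mouse 1 or 3 of PM2.5 with metformin or metformin mouse 3 or 5, with adjusted p between 0.05002 and 0.0737.

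**Figure D3:**
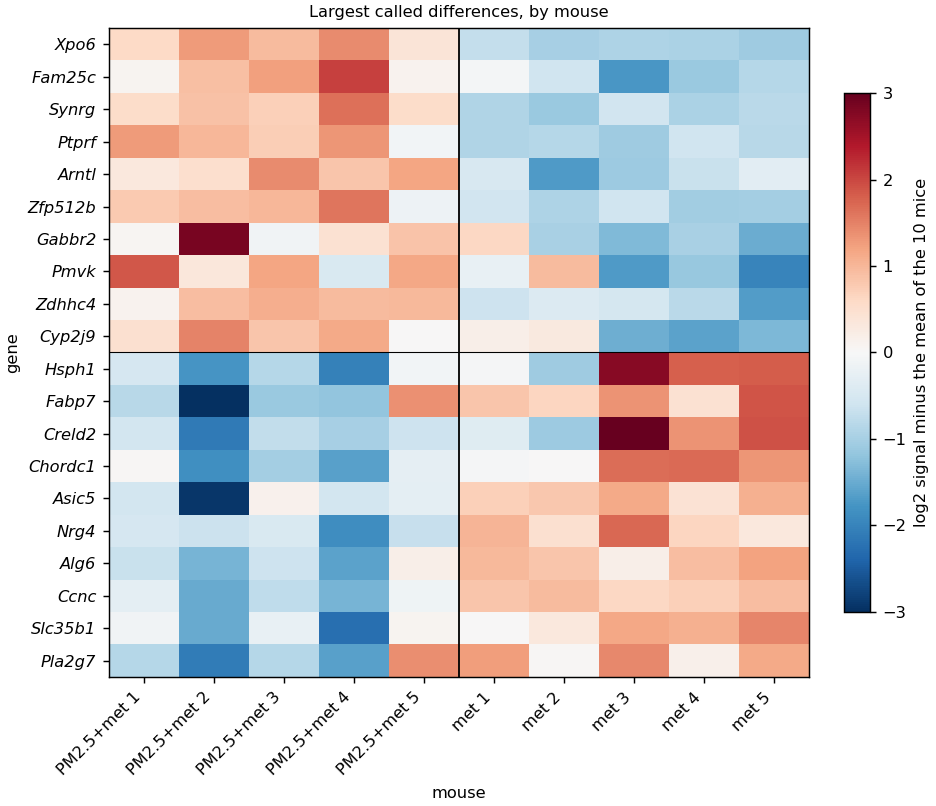
The 10 largest rises (above the line) and the 10 largest falls (below it) among called genes above the negative-control level, as log2 signal minus the mean of the 10 mice, with PM2.5 with metformin in the 5 left columns and metformin in the 5 right columns. Xpo6, Synrg and Ccnc do not overlap between the groups, while Hsph1 and Creld2 are high in metformin mice 3, 4 and 5 only.

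The largest falls above the control level were those of Hsph1, Fabp7, Creld2 and Chordc1, of which Hsph1, Creld2 and Chordc1 take part in protein folding or its stress response. Hsph1, a cytosolic heat shock protein that recharges other chaperones, had 8.33, 7.06, 7.98, 6.82 and 8.76 in PM2.5 with metformin, against 8.80, 7.77, 11.56, 10.63 and 10.66 in metformin alone. Metformin mice 3, 4 and 5 were high, and metformin mice 1 and 2 lay among or next to the mice with particles. The difference was -2.09 ± 0.51 (adjusted p = 0.00865, limma), and -1.52 without mice 2 and 4 of PM2.5 with metformin (adjusted p = 0.116). Chordc1, a partner of the chaperone Hsp90, fell by 1.88 log2 units (adjusted p = 0.00244) and by 1.36 without mice 2 and 4 (adjusted p = 0.045).

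Creld2, a protein of the endoplasmic reticulum that is secreted under folding stress, had 7.93, 6.38, 7.75, 7.49 and 7.88 in PM2.5 with metformin, against 8.12, 7.41, 11.73, 9.83 and 10.39 in metformin alone. It fell by 2.01 on the log2 scale (SE 0.55, adjusted p = 0.0162), and only 3 of the 10 values exceeded the 95th percentile of the negative controls. The difference was -1.64 without mice 2 and 4 and was not called (adjusted p = 0.133). Sdf2l1, a cofactor of the chaperone Hspa5, was dimmer still: it had 4.85, 5.04, 4.49, 4.62 and 4.91 in PM2.5 with metformin, against 5.10, 4.54, 7.83, 6.35 and 7.78 in metformin alone. All 5 mice with particles and metformin mice 1 and 2 lay between 4.49 and 5.10, near the negative-control median of 4.55. Its difference was -1.54 (adjusted p = 0.0192), with only metformin mice 3, 4 and 5 well above that median. Without metformin mouse 3 or 5 it missed the threshold (adjusted p = 0.0548 and 0.0626), as it did without mice 2 and 4 of PM2.5 with metformin (-1.57, adjusted p = 0.0837).

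Of 19 tested genes of the unfolded protein response, 9 were called lower and 0 higher, against 6.72% called lower over all tested genes. The list median was -0.48. Hspa5, the most abundant chaperone of the endoplasmic reticulum, had 16.95, 15.997, 16.57, 15.87 and 16.79 in PM2.5 with metformin, against 17.06, 16.80, 18.02, 17.74 and 17.68 in metformin alone. Its difference was -1.02 ± 0.22 (adjusted p = 0.00433), and -0.69 without mice 2 and 4 (adjusted p = 0.0724). Group means of Hspa5 were 16.67 in PM2.5 and 17.18 in filtered air, mice that had no metformin.

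Hsp90b1, the endoplasmic reticulum member of the Hsp90 family, had 16.32, 16.01, 16.19, 16.06 and 16.15 in PM2.5 with metformin, against 16.51, 16.41, 17.27, 16.85 and 17.15 in metformin alone. The groups did not overlap, and the difference was -0.69 ± 0.15 (adjusted p = 0.00433), -0.62 without mice 2 and 4 (adjusted p = 0.0486). It was the only called gene of the list without those 2 mice. Pdia6, an enzyme that forms disulfide bonds, fell by 1.11 (adjusted p = 0.00472) and by 0.81 without mice 2 and 4 (adjusted p = 0.0722).

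The other 4 called genes were outside the naming rule and were chosen after their values were seen. Xbp1, the transcription factor that drives chaperone genes, fell by 0.79 log2 units (adjusted p = 0.00509) with no overlap between groups. Calr, a calcium-binding chaperone, fell by 0.69 (adjusted p = 0.0189), Dnajc3, a cochaperone, by 0.48 (adjusted p = 0.0261) and Pdia3, a disulfide isomerase, by 0.61 (adjusted p = 0.0276). Calr, Dnajc3 and Pdia3 each missed the threshold without mouse 4 of PM2.5 with metformin (adjusted p = 0.067, 0.0872 and 0.0736) and without metformin mouse 5 (0.0549, 0.0846 and 0.0886). Calr and Pdia3 also missed it without metformin mouse 4 (0.0526 and 0.0648), and Dnajc3 and Pdia3 without metformin mouse 3 (0.05003 and 0.0736). The adjusted p without mice 2 and 4 was 0.0724 for Xbp1, 0.182 for Calr, 0.179 for Dnajc3 and 0.133 for Pdia3. With the negative-control covariate 5 of the 9 were called. In filtered air the means of Calr, Pdia3, Dnajc3 and Sdf2l1 were 15.91, 13.25, 13.94 and 4.83. On metformin alone they were 16.75, 14.07, 14.31 and 6.32, and with PM2.5 added 16.05, 13.46, 13.82 and 4.78. Filtered-air means of Hsp90b1, Pdia6, Xbp1 and Creld2 were 16.58, 14.52, 15.17 and 8.39. Metformin alone had 16.84, 14.83, 15.38 and 9.50 for these genes, and PM2.5 with metformin 16.15, 13.72, 14.59 and 7.49.

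The fall of these genes followed a split inside the metformin group. Metformin mice 1 and 2 were the 2 lowest of their group for 16 of the 19 tested genes of the list, 84.2%, against 14.1% of all tested genes. Taken as the mean deviation from the metformin average over the list, metformin mice 1 and 2 were at -0.51 and -0.70 and metformin mice 3, 4 and 5 at 0.53, 0.31 and 0.37. The 5 mice with particles lay between -0.67 and -0.42. They were thus alike among themselves and close to metformin mice 1 and 2. What set metformin mice 1 and 2 apart was not tested.

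**Figure D4:**
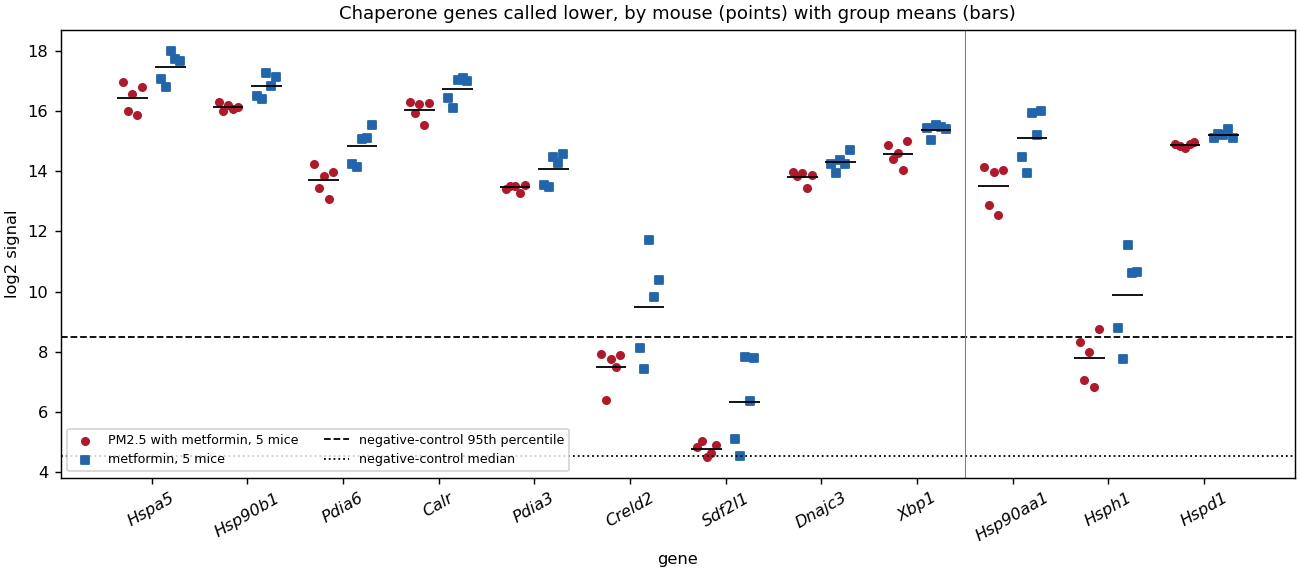
Log2 signal of the 9 called genes of the unfolded protein response (left of the vertical line) and of 3 called heat shock genes, for the 5 mice of PM2.5 with metformin (red circles, left) and the 5 mice of metformin (blue squares, right), with group means as bars. In Hspa5, Pdia3, Creld2, Sdf2l1 and Hsph1 the metformin mice split into 3 high and 2 low values, and Sdf2l1 lies near the negative-control median in 7 of 10 mice.

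Promoters were read to show what the falling chaperone genes share in sequence, which the comparison did not use. The endoplasmic reticulum stress response element, at which Xbp1 and Atf6 are known to act, was searched as CCAAT, 9 bases of any kind and CCACG, on both strands in the 250 bases before each gene start (RefSeq, GRCm38.p6). It occurred in 6 of the 9 called genes and in 2 of the 8 uncalled genes of the list that had a promoter, against 0.189% of 9527 tested genes with a promoter. Over all genes with a promoter, it occurred in 7 of 635 called lower and 1 of 959 called higher. The 7 include the 6 genes of the list, so this count largely repeats them. The list names genes of the response that acts through this element. A larger share than over all tested genes was therefore set by the choice of list. The element and 12 bases on each side are printed for the 6 genes in the direction of the gene, with the element in capitals. In Calr, Creld2 and the second copy of Hsp90b1 it reads as its reverse complement.
Hspa5: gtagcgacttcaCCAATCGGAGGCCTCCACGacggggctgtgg
Pdia6: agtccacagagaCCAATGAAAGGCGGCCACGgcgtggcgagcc
Dnajc3: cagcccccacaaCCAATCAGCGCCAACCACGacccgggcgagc
Calr: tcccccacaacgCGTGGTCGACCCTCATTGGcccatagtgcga
Creld2: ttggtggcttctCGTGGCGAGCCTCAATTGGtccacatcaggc
Hsp90b1: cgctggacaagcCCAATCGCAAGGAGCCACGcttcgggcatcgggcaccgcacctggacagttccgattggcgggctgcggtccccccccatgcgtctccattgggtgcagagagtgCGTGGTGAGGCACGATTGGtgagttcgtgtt
These windows lie at chr2:34772013-34772055 for Hspa5 (plus strand), chr12:17266479-17266521 for Pdia6 (plus), chr14:118937815-118937857 for Dnajc3 (plus), chr8:84847063-84847105 for Calr (minus), chr15:88819508-88819550 for Creld2 (plus) and chr10:86705521-86705668 for Hsp90b1 (minus). The element starts 65 bases before the gene start in Hspa5 and 212 bases before it, for the first of 2 copies, in Hsp90b1. It was not found in the searched windows of Pdia3, Sdf2l1 and Xbp1. The match is a description of the letters in these windows.

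Of 9 tested heat shock proteins of the cytosol and mitochondria, 3 were called lower and 0 higher, against 6.72% and 9.82% over all tested genes. Their median was -0.33, and 0 were called without mice 2 and 4. Besides Hsph1 the 3 were Hsp90aa1, the stress-inducible Hsp90, and Hspd1, the mitochondrial chaperonin. Hsp90aa1 had 14.13, 12.89, 13.99, 12.56 and 14.04 in PM2.5 with metformin, against 14.48, 13.94, 15.93, 15.22 and 15.997 in metformin alone, and again metformin mouse 2 overlapped with the mice with particles. It differed by -1.59 ± 0.35 (adjusted p = 0.00519), and by -1.06 without mice 2 and 4 (adjusted p = 0.0832). Hspd1 differed by -0.34 (adjusted p = 0.0362) without overlap, but missed the threshold without any of 7 of the 10 mice (mice 2, 3 and 4 of PM2.5 with metformin and metformin mice 2, 3, 4 and 5), with adjusted p up to 0.0934, and without mice 2 and 4 together (0.128).

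Ccnc, the cyclin of the Mediator complex, had 11.66, 10.43, 11.19, 10.54 and 11.81 in PM2.5 with metformin, against 12.78, 12.89, 12.57, 12.65 and 12.88 in metformin alone. The groups did not overlap, and the difference was -1.63 ± 0.22 (adjusted p = 0.00041), -1.20 without mice 2 and 4 (adjusted p = 0.00504). Nrg4, a secreted ligand of the epidermal growth factor family, had 10.69, 10.55, 10.72, 9.32 and 10.49 in PM2.5 with metformin, against 12.20, 11.67, 12.91, 11.83 and 11.50 in metformin alone. The groups again did not overlap. It fell by 1.66 log2 units (adjusted p = 0.000917) and by 1.38 without mice 2 and 4 (adjusted p = 0.0119).

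Alg6, a glucosyltransferase that builds the sugar chain for glycoproteins, fell by 1.65 (adjusted p = 0.000565) with no overlap, with a log2 difference of -1.20 without mice 2 and 4 (adjusted p = 0.00859). Slc35b1, a nucleotide carrier of the endoplasmic reticulum, fell by 1.62 (adjusted p = 0.00558), Asic5, a bile-acid-sensitive ion channel, by 1.67 (adjusted p = 0.0117) and Fabp7, a fatty acid binding protein, by 2.05 (adjusted p = 0.0108). These 3 missed the threshold without mice 2 and 4 together, with adjusted p between 0.0727 and 0.106. Pla2g7, a phospholipase that breaks down platelet-activating factor, fell by 1.61 (adjusted p = 0.0159), and missed the threshold without mouse 2 or mouse 4 alone (adjusted p = 0.0512 and 0.0547) or without both (0.213).

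Among dim genes, the largest rises were those of Egr1, Plin4, Il22ra1, Odf3b and Tatdn2. Egr1, an immediate early transcription factor, had 7.23, 5.93, 7.75, 7.71 and 10.79 in PM2.5 with metformin, against 5.76, 5.69, 7.04, 4.77 and 5.84 in metformin alone, and only mouse 5 exceeded the 95th percentile of the negative controls. Its difference was 2.06 ± 0.60 (adjusted p = 0.022), and it missed the threshold without metformin mouse 4 (adjusted p = 0.0588). Plin4, a lipid droplet coat protein, rose by 1.84 (adjusted p = 0.00315), with 0 of 10 values above that level. Il22ra1, a receptor chain for interleukin-22, rose by 1.68 (adjusted p = 0.00162) without overlap, Odf3b by 1.44 (adjusted p = 0.00743) and Tatdn2 by 1.40 (adjusted p = 0.00257). Odf3b was not called without mice 2 and 4 (1.14, adjusted p = 0.0875), while Egr1, Plin4, Il22ra1 and Tatdn2 were (adjusted p = 0.0184, 0.0334, 0.03 and 0.0446).

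The dim falls, after Sdf2l1, were those of P2ry12, a purine receptor (-1.33, adjusted p = 0.00551), Rarb, a retinoic acid receptor (-1.25, adjusted p = 0.00885), Tmed3, a cargo receptor of the secretory pathway (-1.22, adjusted p = 0.00525), and Dkc1, an enzyme of RNA modification (-1.20, adjusted p = 0.0131). None of the 4 passed without mice 2 and 4, with adjusted p between 0.0677 and 0.113.

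Of 16 tested genes of de novo lipogenesis, 3 were called higher and 0 lower, against 9.82% called higher and 6.72% lower over all tested genes, with a median of 0.16. With the covariate, in the 10 arrays alone and without mice 2 and 4, 1 was called in each case. Slc25a1, the carrier that brings citrate out of mitochondria, had 14.84, 14.91, 14.88, 15.06 and 15.31 in PM2.5 with metformin, against 14.21, 14.52, 14.36, 14.48 and 13.63 in metformin alone, with no overlap. It rose by 0.76 ± 0.18 (adjusted p = 0.00661), and by 0.77 without mice 2 and 4 (adjusted p = 0.0434).

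Fasn, the fatty acid synthase, had 13.17, 14.09, 12.43, 12.87 and 12.99 in PM2.5 with metformin, against 11.91, 11.03, 11.50, 13.39 and 10.59 in metformin alone. Metformin mouse 4 overlapped with the mice with particles. The difference was 1.43 ± 0.45 (adjusted p = 0.0341), with an adjusted p between 0.051 and 0.103 when any of 6 mice was left out (mice 1, 2 and 4 of PM2.5 with metformin and metformin mice 2, 3 and 5) and 0.187 without mice 2 and 4 together. Acly, which makes acetyl-CoA from citrate, differed by 1.24 ± 0.40 (adjusted p = 0.0373), with an adjusted p between 0.0541 and 0.11 when any of 6 mice was left out (mice 1, 2 and 5 of PM2.5 with metformin and metformin mice 2, 3 and 5) and 0.132 without mice 2 and 4 together. Scd1, the stearoyl-CoA desaturase, differed by 0.01 ± 0.14 (adjusted p = 0.981) at a mean signal of 18.04 in both groups.

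Of 12 tested genes of triglyceride assembly 2 were higher and 0 lower, against 9.82% and 6.72% over all tested genes. The 2 were Gpat4, which starts glycerolipid synthesis in the endoplasmic reticulum (0.98, adjusted p = 0.0111), and Gpam, its mitochondrial counterpart (0.67, adjusted p = 0.047). Leaving out mice 2 and 4, 0 of the list were called. Gpam missed the threshold without any of 8 mice, with adjusted p up to 0.146 (all but mouse 3 of PM2.5 with metformin and metformin mouse 4), and both missed it without mice 2 and 4 (adjusted p = 0.139 for Gpam and 0.163 for Gpat4). Tecr, the last enzyme of very long chain fatty acid elongation, had 13.41, 13.72, 14.22, 13.70 and 13.89 in PM2.5 with metformin, against 12.11, 12.50, 12.37, 12.85 and 11.89 in metformin alone. It rose by 1.44 ± 0.32 with no overlap (adjusted p = 0.00547), and by 1.496 without mice 2 and 4 (adjusted p = 0.0374). It was 1 of 2 called, both higher, of 11 tested genes of elongation and desaturation, and the only 1 called without mice 2 and 4.

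Of 16 tested genes of cholesterol synthesis 2 were called higher, Pmvk and Dhcr7, and 0 lower, against 9.82% and 6.72% over all tested genes. The list median was 0.42 (1.01 and 3 called without mice 2 and 4). As the mean deviation from the metformin average, the list was at 0.37, 1.61, -1.22, 0.29 and -1.04 in metformin mice 1 to 5. In PM2.5 with metformin it was at 1.37, -0.38, 1.06, -0.12 and 1.06, so the groups overlapped. Dhcr7, which makes cholesterol in the last step, had 12.43, 11.29, 12.41, 11.75 and 12.53 in PM2.5 with metformin, against 10.73, 11.86, 9.61, 11.33 and 9.55 in metformin alone. The groups overlapped through metformin mice 2 and 4, and the difference was 1.47 ± 0.39 (adjusted p = 0.0143), 1.84 without mice 2 and 4 of PM2.5 with metformin (adjusted p = 0.0254). Over 14 tested genes of cholesterol uptake and its control the median was 0.46, and 2 were called higher without mice 2 and 4. With all mice 6 were higher and 0 lower, against 9.82% and 6.72% over all tested genes. They included Lcat, the plasma enzyme that esterifies cholesterol (0.92, adjusted p = 0.00363), Scap, the escort of SREBP transcription factors (0.96, adjusted p = 0.00415), and Lrp1, an uptake receptor for lipoprotein remnants (1.09, adjusted p = 0.00547), all without overlap. Lcat and Scap were called without mice 2 and 4 (adjusted p = 0.0496 and 0.0437) and Lrp1 was not (0.57, adjusted p = 0.0681). Of 11 tested apolipoproteins 0 were called.

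Of 18 tested genes of insulin and growth hormone signalling, 6 were higher and 1 lower, with a median of 0.47, against 9.82% higher and 6.72% lower over all tested genes. Without mice 2 and 4, 2 were higher and 0 lower, against 3.16% and 1.18%. Insr, the insulin receptor, had 12.98, 13.82, 13.34, 13.88 and 13.30 in PM2.5 with metformin, against 12.64, 12.44, 12.67, 12.46 and 12.47 in metformin alone. The groups did not overlap, and the difference was 0.93 ± 0.18 (adjusted p = 0.00189), 0.67 without mice 2 and 4 (adjusted p = 0.036). Stat5b, a transcription factor of growth hormone signalling, rose by 0.68 (adjusted p = 0.00249) without overlap but was dim. Only 1 of its 10 values exceeded the 95th percentile of the negative controls. Igfals, which holds IGF1 in the circulation, rose by 1.53 (adjusted p = 0.00789), with metformin mouse 2, at 9.12, above 3 of the mice with particles. Stat5b was called without mice 2 and 4 (0.60, adjusted p = 0.0344) and Igfals was not (1.51, adjusted p = 0.0558).

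Of 17 tested genes of gluconeogenesis 4 were higher and 1 lower, against 9.82% and 6.72% over all tested genes. The counts without mice 2 and 4 were 0 higher and 1 lower, against 3.16% and 1.18%. Slc37a4, the transporter of glucose 6-phosphate into the endoplasmic reticulum, had 15.18, 15.02, 15.53, 15.02 and 15.25 in PM2.5 with metformin, against 15.89, 15.54, 16.20, 15.96 and 16.20 in metformin alone. The groups did not overlap, though the nearest mice, at 15.53 and 15.54, almost met. It fell by 0.76 log2 units (adjusted p = 0.00188) and by 0.64 without mice 2 and 4 (adjusted p = 0.0329). Foxo1, the transcription factor that insulin switches off, rose by 0.82 (adjusted p = 0.015) without overlap, and by 0.64 without mice 2 and 4 (adjusted p = 0.143). Got1, the cytosolic aspartate aminotransferase, differed by 0.99 (adjusted p = 0.0206) and missed the threshold without mouse 2 or 3 of PM2.5 with metformin or metformin mouse 2 (adjusted p between 0.0516 and 0.0669), and without mice 2 and 4 (0.156). Pck1, an early enzyme of this pathway, and G6pc, its last enzyme, differed by 0.21 and -0.28 and were not called (adjusted p = 0.528 and 0.369).

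Of 9 tested genes of metformin transport and AMPK 2 were called higher and 0 lower, against 9.82% and 6.72% over all tested genes. Both had small differences. They were Stk11, the kinase that activates AMPK (0.54, adjusted p = 0.0312), and Prkag1, a regulatory subunit of AMPK (0.36, adjusted p = 0.0398). Stk11 missed the threshold without mouse 2, 3 or 4 of PM2.5 with metformin or metformin mouse 3 or 5 (adjusted p up to 0.0985). Prkag1 missed it without mouse 2, 3 or 4 of PM2.5 with metformin or metformin mouse 2, 3, 4 or 5 (adjusted p up to 0.11). Neither passed without mice 2 and 4 (0.256 for Stk11 and 0.192 for Prkag1).

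Of 19 tested genes of the urea cycle and amino acid breakdown 7 were higher and 0 lower, against 9.82% and 6.72% over all tested genes. But 0 were called without mice 2 and 4, where the list median was 0.06 against 0.15 with all mice. Gldc, of the glycine cleavage system, had 12.32, 13.45, 13.05, 13.02 and 12.58 in PM2.5 with metformin, against 12.15, 11.66, 12.04, 12.19 and 11.89 in metformin alone. It rose by 0.90 ± 0.20 without overlap (adjusted p = 0.00486), and by 0.67 without mice 2 and 4 (adjusted p = 0.0681). Bckdha, a subunit of the enzyme that breaks down branched-chain amino acids, rose by 0.67 (adjusted p = 0.00865), and differed by 0.41 without mice 2 and 4 (adjusted p = 0.125). Prodh, the proline dehydrogenase, differed by 1.06 (adjusted p = 0.019), with adjusted p of 0.0529 without mouse 2 and 0.0658 without mouse 4 of PM2.5 with metformin, and 0.205 without both.

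Of 13 tested core clock genes, 2 were higher and 1 lower, against 9.82% higher and 6.72% lower over all tested genes, and 1 was higher and 0 lower without mice 2 and 4. Beside Arntl, Nr1d1, a repressor of Arntl also called Rev-erb alpha, was higher by 0.88 (adjusted p = 0.0186) and its paralogue Nr1d2 lower by 0.65 (log2 difference -0.65, adjusted p = 0.0207). Nr1d1 missed the threshold without mouse 2 or 4 of PM2.5 with metformin or metformin mouse 3 (adjusted p between 0.0518 and 0.0594), and Nr1d2 without mouse 4 of PM2.5 with metformin or metformin mouse 1, 2 or 5 (adjusted p between 0.0509 and 0.0532). Neither passed without mice 2 and 4 together (0.185 for Nr1d1 and 0.0559 for Nr1d2). Of 12 tested output genes 1 was higher and 1 lower: Nfil3, a repressor, rose by 0.99 (adjusted p = 0.00707) without overlap but stayed dim, and Wee1, a cell cycle kinase under clock control, fell by 1.27 log2 units (adjusted p = 0.00606). Neither Nfil3 nor Wee1 passed without mice 2 and 4 (0.83, adjusted p = 0.067 for Nfil3, and -1.12, adjusted p = 0.0642 for Wee1). Dbp, a clock-driven transcription factor, differed by -0.62 ± 0.32 (adjusted p = 0.192), but was called without mice 2 and 4 (-1.11, adjusted p = 0.0451) and with the covariate (0.0357). Per1, a repressor of the clock, had 5.94, 8.39, 6.08, 6.24 and 5.64 in PM2.5 with metformin, against 5.39 to 5.90 in metformin alone, and its difference of 0.86 (adjusted p = 0.177) rested on mouse 2. Differences in the hour of collection and effects of the particles cannot be told apart here.

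Of 20 tested genes of iron and heme, 4 were higher and 1 lower, against 9.82% higher and 6.72% lower over all tested genes. With the covariate and in the 10 arrays alone 1 was higher and 0 lower, and without mice 2 and 4, 0 were called. Ftl1, the ferritin light chain, had 16.46, 16.94, 16.65, 16.61 and 16.57 in PM2.5 with metformin, against 15.99, 15.60, 16.04, 16.28 and 16.02 in metformin alone. It rose by 0.66 ± 0.16 without overlap (adjusted p = 0.0104), and by 0.57 without mice 2 and 4 (adjusted p = 0.0833). Hamp, the iron hormone hepcidin, and its near-identical copy Hamp2, whose probes may share signal, differed by 0.84 and 0.83 (adjusted p = 0.0169 and 0.0183), and both missed the threshold without mouse 2 of PM2.5 with metformin (adjusted p = 0.0545 and 0.0579), Hamp2 also without metformin mouse 3 (0.0529) and both without mice 2 and 4 together (0.168 for Hamp and 0.182 for Hamp2). Hmox1, the heme oxygenase and the only called gene among 22 tested NRF2 targets, differed by 1.07 (adjusted p = 0.0427) and missed the threshold without mouse 1, 4 or 5 of PM2.5 with metformin or metformin mouse 2, 3, 4 or 5 (adjusted p between 0.053 and 0.114), and without mice 2 and 4 (1.21, adjusted p = 0.0966).

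Of 9 tested genes of metallothioneins and zinc transport 1 was higher and 1 lower, against 9.82% and 6.72% over all tested genes. The counts without mice 2 and 4 were 1 higher and 0 lower. Mt1, a metal-binding metallothionein, had 16.67, 18.05, 17.24, 17.87 and 17.29 in PM2.5 with metformin, against 17.42, 16.86, 15.65, 14.89 and 16.49 in metformin alone. The groups overlapped through metformin mice 1 and 2. Its difference was 1.16 ± 0.36 (adjusted p = 0.0297), with an adjusted p of 0.0735 to 0.0865 without mouse 2 or 4 of PM2.5 with metformin or metformin mouse 3 or 4, and of 0.25 without mice 2 and 4 together. Mt2, a second metallothionein, differed by 1.53 ± 0.60 (adjusted p = 0.0823). Mt1 was also the only called member of 18 tested glucocorticoid targets.

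Of 17 tested genes of autophagy and the lysosome, 4 were higher and 0 lower, against 9.82% higher and 6.72% lower over all tested genes. Without mice 2 and 4, 3 were higher and 0 lower, against 3.16% and 1.18%. Atg7, the enzyme that starts conjugation of LC3, had 8.44, 9.29, 9.87, 9.48 and 9.70 in PM2.5 with metformin, against 7.83, 7.99, 7.95, 7.86 and 8.13 in metformin alone. It rose by 1.40 ± 0.22 without overlap (adjusted p = 0.000583), and by 1.38 without mice 2 and 4 (adjusted p = 0.0103). Mcoln1, a calcium channel of the lysosome, rose by 0.79 (adjusted p = 0.00244), and Gabarapl1, an LC3 relative of the autophagosome, by 0.64 (adjusted p = 0.00661), both without overlap. Mcoln1 was called without mice 2 and 4 (0.68, adjusted p = 0.0354) and Gabarapl1 was not (0.53, adjusted p = 0.072).

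Of 36 tested subunits of complex I of the respiratory chain 5 were higher and 2 lower, with a median of 0.03, against 9.82% higher and 6.72% lower and a median of 0.02 over all tested genes. The count without mice 2 and 4 was 3 higher and 1 lower. Ndufa10 had 13.62, 13.91, 13.98, 13.77 and 13.74 in PM2.5 with metformin, against 12.79, 12.86, 12.94, 13.23 and 12.92 in metformin alone, and rose by 0.85 ± 0.17 (adjusted p = 0.00234; 0.83 without mice 2 and 4, adjusted p = 0.0254). Ndufs1, the largest subunit of complex I, had 13.50, 12.95, 13.28, 12.87 and 13.31 in PM2.5 with metformin, against 13.86, 13.99, 13.80, 13.86 and 13.94 in metformin alone. Ndufs1 fell by 0.71 log2 units (adjusted p = 0.00257), and neither it nor Ndufa10 overlapped between groups. Ndufv3 rose by 0.91 (adjusted p = 0.000917) but was dim. Both Ndufs1 and Ndufv3 were called without mice 2 and 4 (adjusted p = 0.0437 for Ndufs1 and 0.0107 for Ndufv3).

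Of 39 tested subunits of complexes II to V, 5 were higher and 3 lower, against 9.82% and 6.72% over all tested genes. The counts without mice 2 and 4 were 1 and 0, against 3.16% and 1.18%. The genes called with all mice included Cox6a1 of cytochrome oxidase (0.66, adjusted p = 0.00384) and Sdhd of succinate dehydrogenase (-0.58, adjusted p = 0.00547). Cox6a1 was called without mice 2 and 4 (adjusted p = 0.024) and Sdhd was not (-0.46, adjusted p = 0.0681). Of 33 tested genes of fatty acid oxidation 0 were higher and 3 lower, against 9.82% and 6.72% over all tested genes. The list median was -0.14, and 0.10 without mice 2 and 4. Both without those mice and with the covariate, 1 was higher and 0 lower. The 3 genes called lower included Etfdh, which passes electrons from fat oxidation to the chain (-0.58, adjusted p = 0.0118). Acadm, the medium-chain dehydrogenase, was another (-0.65, adjusted p = 0.0277). Neither passed without mice 2 and 4 (adjusted p = 0.161 and 0.312), and Acadm was lost without mouse 2 or 4 of PM2.5 with metformin or metformin mouse 2 or 5 (adjusted p between 0.0521 and 0.0876). Acat1, of ketone synthesis, fell by 0.56 log2 units (adjusted p = 0.0105), and its values without mice 2 and 4 gave -0.32 (adjusted p = 0.143). Cpt1a, which admits fatty acids to mitochondria, and Pdk4, which blocks the entry of pyruvate, differed by 0.48 and 0.26 and were not called (adjusted p = 0.164 and 0.718).

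Of 26 tested acute-phase genes 2 were higher and 1 lower, against 9.82% higher and 6.72% lower over all tested genes, and 0 were higher and 1 lower without mice 2 and 4. Crp, C-reactive protein, fell by 0.68 log2 units (adjusted p = 0.0058) without overlap, Itih4, a plasma protease inhibitor, rose by 1.08 (adjusted p = 0.0156) without overlap, and Stat3, the transcription factor of the acute-phase response, differed by 0.66 (adjusted p = 0.0328). Itih4 was lost without mouse 4 of PM2.5 with metformin (0.88, adjusted p = 0.0565) and Stat3 without mouse 2 or 4 of that group or metformin mouse 2 or 5 (adjusted p between 0.0637 and 0.101). Crp, Itih4 and Stat3 had an adjusted p of 0.0837, 0.2 and 0.322 without mice 2 and 4. Among 13 tested genes of inflammatory cytokines and NF-kappaB 1 was higher and 1 lower, and 0 were called without mice 2 and 4. The higher was Nfkbia, the inhibitor of NF-kappaB, which rose by 0.80 (adjusted p = 0.00697) without overlap, and by 0.63 without mice 2 and 4 (adjusted p = 0.0852). Among 26 tested genes of complement and coagulation 3 were higher and 1 lower, with a median of 0.16, and 0 were called without mice 2 and 4. The only 1 called lower was F9, coagulation factor IX, which fell by 0.61 log2 units (adjusted p = 0.00469) without overlap. F9 missed the threshold without mice 2 and 4 (-0.46, adjusted p = 0.0595). Abcc3, an exporter of conjugates induced through the receptors CAR and PXR, had 15.20, 15.26, 15.60, 15.29 and 15.20 in PM2.5 with metformin, against 14.41, 14.54, 14.54, 14.50 and 14.49 in metformin alone, and rose by 0.82 ± 0.17 (adjusted p = 0.00333; 0.84 without mice 2 and 4, adjusted p = 0.0262).

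Several responses often looked for after particle exposure gave 0 calls or 1, against 9.82% called higher and 6.72% lower over all tested genes. Of 6 tested targets of the aryl hydrocarbon receptor 0 were called, a list too short to tell 0 calls from those shares. Cyp1a2, its main hepatic member, differed by 0.59 ± 0.34 (adjusted p = 0.257). Nqo1, an antioxidant enzyme under NRF2, differed by 0.15 (adjusted p = 0.74). Cdkn1a, the p53 target that halts the cell cycle, had 7.70, 6.43, 10.40, 10.54 and 10.53 in PM2.5 with metformin, against 5.99, 4.28, 9.22, 8.08 and 8.13 in metformin alone. Its difference of 1.98 ± 0.91 was not called (adjusted p = 0.14). Fgf21, a fasting and stress hormone, was dim and differed by 1.48 ± 0.51 (adjusted p = 0.0526). It was called without mice 2 and 4 (2.24, adjusted p = 0.023) and with the covariate (0.0452). Cirbp, a cold-inducible RNA-binding protein, differed by 0.77 (adjusted p = 0.207), while Sfpq, a splicing protein of the same list, rose by 1.03 (adjusted p = 0.00302) without overlap, and by 0.60 without mice 2 and 4 (adjusted p = 0.0369). Cyp7a1, the rate-limiting enzyme of bile acid synthesis, differed by 0.30 (adjusted p = 0.633), while 1 was higher and 2 lower of 20 tested genes of bile acid synthesis and transport. Pdzk1ip1, a membrane protein, and A4gnt, a glycosyltransferase, differed by 0.49 and -0.40 (adjusted p = 0.641 and 0.482), and A4gnt lay below the negative-control median in all 10 mice.

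Markers of other liver cells were described as lists. In bulk liver, fewer cells of a type and less RNA per cell cannot be told apart. Of 23 tested markers of Kupffer cells and macrophages 1 was lower and 0 higher, against 6.72% and 9.82% over all tested genes. The median was -0.16, and it was 0.19 with 0 called without mice 2 and 4. The summed signal of the list was 12.34 to 15.42 in PM2.5 with metformin, against 13.82 to 14.40 in metformin alone. Vsig4, a complement receptor of resident Kupffer cells, had 11.002, 8.75, 10.47, 10.38 and 13.28 in PM2.5 with metformin, against 12.29, 12.64, 12.22, 12.19 and 12.48 in metformin alone. Mouse 2 was the lowest and mouse 5 the highest of the 10. Its difference of -1.59 ± 0.48 (adjusted p = 0.0266) was lost without mouse 2, 3 or 4 of PM2.5 with metformin or metformin mouse 2 or 5 (adjusted p between 0.0542 and 0.0767), and without mice 2 and 4 together (-0.78, adjusted p = 0.27).

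Of 18 tested endothelial markers 2 were higher and 2 lower, against 9.82% and 6.72% over all tested genes. The counts without mice 2 and 4 were 1 higher and 0 lower. Stab2, a scavenger receptor of sinusoidal endothelium, had 8.59, 8.34, 8.48, 8.68 and 8.53 in PM2.5 with metformin, against 7.87, 7.199, 6.89, 7.45 and 7.66 in metformin alone. Only 3 of these 10 values, all with particles, exceeded the 95th percentile of the negative controls of their array. Stab2 rose by 1.11 ± 0.19 without overlap (adjusted p = 0.00114), and by 1.12 without mice 2 and 4 (adjusted p = 0.0132). Clec4g, a lectin of the same cells, and Fcgr2b, their inhibitory antibody receptor, fell by 1.23 and 0.99 log2 units (adjusted p = 0.00591 and 0.00885), with overlap through mouse 5, and neither was called without mice 2 and 4 (-0.84, adjusted p = 0.0814 for Clec4g, and -0.55, adjusted p = 0.117 for Fcgr2b). The summed signal of the list was 13.48 to 14.93 in PM2.5 with metformin and 14.52 to 15.004 in metformin alone. Of 15 tested stellate cell and matrix markers 3 were higher and 1 lower (3 and 0 without mice 2 and 4). The shares over all tested genes were 9.82% and 6.72% (3.16% and 1.18% without those mice). Tgfb1 and Pdgfrb, a fibrogenic cytokine and the receptor for platelet-derived growth factor, rose by 0.90 and 0.77 (adjusted p = 0.00315 and 0.00547) without overlap but were dim in all 10 mice, and were called without mice 2 and 4 (adjusted p = 0.0254 for Tgfb1 and 0.0463 for Pdgfrb). Lrat, which stores vitamin A in stellate cells, fell by 1.46 log2 units (adjusted p = 0.0154), and was lost without metformin mouse 5 (-1.18, adjusted p = 0.0514) and without mice 2 and 4 (-1.35, adjusted p = 0.101). Of 6 tested neutrophil markers and 3 tested markers of T and NK cells 0 were called. Foxa2, a transcription factor of hepatocytes, was the only called member of 12 tested hepatocyte genes (0.81, adjusted p = 0.0329) and was dim. It missed the threshold without mouse 3 or 5 of PM2.5 with metformin or metformin mouse 1, 3 or 5 (adjusted p between 0.0733 and 0.0933). But it passed without mice 2 and 4 (1.08, adjusted p = 0.0365).

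The called genes were also described by their place and length in the genome. Among the 2341 longest genes tested, with a genomic span of 66.0 to 2390.4 kb, 15.7% were called higher and 4.83% lower. Among the 2341 shortest, of up to 7.5 kb, 6.83% were higher and 3.84% lower. The share called higher without mice 2 and 4 was 5.68% of the longest and 2.09% of the shortest, and the share called lower 0.683% and 0.94%. The median span was 33.5 kb for the genes called higher, 24.7 kb for those called lower and 22.9 kb for all tested. On the X chromosome 2.89% of 380 tested genes were higher and 10.8% lower, against 10.1% higher and 6.57% lower on the autosomes, where the lowest share higher was 6.61% and the highest share lower 9.53% of any chromosome. Leaving out mice 2 and 4, the shares on X were 1.32% higher and 2.89% lower, against 3.23% and 1.12% on the autosomes.

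The particle difference without metformin, PM2.5 against filtered air, was taken from the other 10 arrays of the same fit. It called 618 genes (5.28%), 318 higher (2.72%) and 300 lower (2.56%). Of these, 213 were called in both comparisons: 34.5% of the 618 and 11.01% of the 1935. In 115 both were higher, in 93 both lower, and in 5 the gene was higher on metformin and lower without it. The sign was shared by 86.0% of the 1935 genes and by 67.0% of all tested genes. Leaving out PM2.5 mouse 2 reduced the 618 calls to 212, and leaving out PM2.5 mouse 5 or filtered-air mouse 1, 2 or 3 gave 248, 268, 377 and 373.

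The test of the difference between both particle differences, their interaction, called 22 genes (0.188%), 19 with a larger value on metformin (0.162%) and 3 with a smaller one (0.0256%). At an unadjusted p under 0.05 it passed for 1537 genes. The count was 44 with the negative-control covariate, 10 without mice 2 and 4, and 7 to 292 when 1 mouse of the 20 was left out. It was 292 without mouse 5 of PM2.5 with metformin, 12 without mouse 4 of that group, 7 without metformin mouse 3, PM2.5 mouse 1 or PM2.5 mouse 2, and 8 without metformin mouse 2 or filtered-air mouse 5. It was 11 without metformin mouse 5 or filtered-air mouse 3 and 14 without filtered-air mouse 2. All 22 were among the 292, and 7 of them passed whichever mouse was left out.

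The largest interactions by size were those of Fasn (3.32), Pnpla3 (3.19), Angptl8 (3.02), Acly (2.82) and Angptl4 (-2.80). The group means of Fasn were 13.11 in PM2.5 with metformin and 11.68 in metformin, and 13.54 in PM2.5 and 15.43 in filtered air. The particle difference of Fasn was 1.43 on metformin and -1.89 without it, an interaction of 3.32 ± 0.64 (adjusted p = 0.03). Acly had 1.24 on metformin and -1.58 without it, an interaction of 2.82 (adjusted p = 0.0374), and Gpam 0.67 and -1.10, an interaction of 1.77 (adjusted p = 0.0223). Without mice 2 and 4 the 3 interactions were 3.07, 2.73 and 1.79 and were not called (adjusted p = 0.0852, 0.069 and 0.062). Leaving out 1 of the 20 mice kept the call of Fasn in 11 cases, of Acly in 7 and of Gpam in 16. The highest adjusted p were 0.0793 for Fasn and 0.0699 for Gpam, both without PM2.5 mouse 1, and 0.0944 for Acly, without PM2.5 mouse 2.

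For Aacs, Angptl8, Anks4b, Pnpla3 and Angptl4 the difference on metformin was not called. Aacs, which makes acetoacetyl-CoA for lipid synthesis and was named after its values were seen, had group means of 7.03 in PM2.5 with metformin and 7.09 in metformin, and 6.96 in PM2.5 and 9.31 in filtered air. Its difference was -0.06 ± 0.20 on metformin (adjusted p = 0.872) and -2.35 ± 0.20 without it (adjusted p = 6.36e-07), an interaction of 2.29 (adjusted p = 0.000491) that was called whichever mouse was left out. All of its groups on metformin were dim. Angptl8, an insulin-induced inhibitor of lipoprotein lipase, differed by -0.17 on metformin and by -3.19 without it, an interaction of 3.02 (adjusted p = 0.0223), called in 15 of 20 such refits and without mice 2 and 4 (adjusted p = 0.00423). Its means were 11.01 in PM2.5 with metformin and 11.18 in metformin, and 10.30 in PM2.5 and 13.49 in filtered air. Anks4b, a protein of the microvillus, differed by -0.57 on metformin and by -2.55 without it, an interaction of 1.98 (adjusted p = 0.0158). The means of Anks4b were 9.66 in PM2.5 with metformin and 10.23 in metformin, and 8.64 in PM2.5 and 11.18 in filtered air. Pnpla3, a lipid droplet protein, gave an interaction of 3.19 (adjusted p = 0.03), called in 12 of 20 refits (highest 0.0793, without PM2.5 mouse 1). It was not called without mice 2 and 4 (adjusted p = 0.069). Its means of 3.82 in PM2.5 with metformin and 3.65 in metformin lay below the negative-control median, so its level on metformin was not above background. The means without metformin were 5.24 in PM2.5 and 8.28 in filtered air. Angptl4, a fasting-induced inhibitor of lipoprotein lipase, differed by -0.35 on metformin and by 2.46 without it, an interaction of -2.80 (adjusted p = 0.03). It was called in 14 of 20 refits (highest 0.0793, without PM2.5 mouse 1) and not without mice 2 and 4 (adjusted p = 0.062). Its means were 13.73 in PM2.5 with metformin and 14.08 in metformin, and 14.59 in PM2.5 and 12.13 in filtered air. In each of these genes metformin alone lay on the same side of filtered air as PM2.5.

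Synrg and Ptprf gave the opposite case. The group means of Synrg were 9.32 in PM2.5 with metformin and 7.59 in metformin, and 7.51 in both PM2.5 and filtered air. The particle difference was 0.00 without metformin, and the interaction was 1.73 ± 0.25 (adjusted p = 0.00377), called in all 20 refits that left out 1 mouse and without mice 2 and 4 (adjusted p = 0.00208). Ptprf had 11.11 in PM2.5 with metformin and 9.40 in metformin, and 9.30 in PM2.5 and 9.32 in filtered air. Its interaction of 1.72 (adjusted p = 0.0479) was called in 4 of the 20 refits, with a highest adjusted p of 0.114 without filtered-air mouse 3, and not without mice 2 and 4 (adjusted p = 0.151). Xpo6 rose by 1.86 on metformin and differed by 0.63 without it (adjusted p = 0.0649), and that difference was not called (interaction adjusted p = 0.0737). Dcaf1, a substrate receptor of a ubiquitin ligase that was named after its values were seen, rose by 1.17 on metformin (adjusted p = 0.00041) and differed by -0.17 without it, an interaction of 1.34 (adjusted p = 0.0158) called in all 20 refits. Its difference on metformin was also called without mice 2 and 4 (adjusted p = 0.00569).

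**Figure D5:**
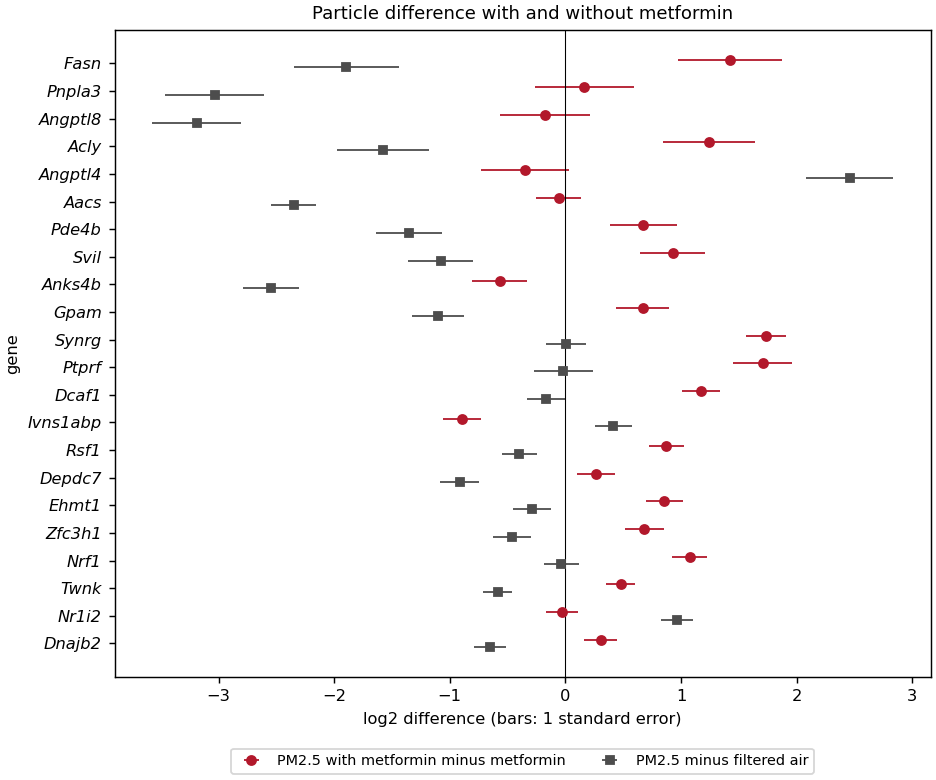
Particle difference on metformin (red circles, PM2.5 with metformin minus metformin) and without it (grey squares, PM2.5 minus filtered air) in log2 units with 1 standard error, for the 22 genes with a called interaction in order of its size. Fasn and Acly have opposite signs, Aacs and Angptl8 lie near 0 on metformin only, and Synrg and Ptprf near 0 without metformin.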

How the data were processed

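Liver RNA of 20 mice was measured on 20 arrays, 1 per mouse. Values were deposited by the authors as log2 signal, 1 value for each probe set and array, and come from Affymetrix Expression Console per the submitters' processing notes. Its version and summary method are not given in the sources used here, and the probe set identifiers belong to a different array than the one the series describes. Of 28846 probe sets, 6640 were controls. Of the other 22206, 19572 had 1 gene in the platform annotation, 0 several and 2634 none, and they gave 19505 genes. The probe set with the highest mean stood for a gene. The 11703 genes whose mean over 20 arrays exceeded the 40th percentile (4.09) were tested in limma 3.58.1 (R 4.3.3), as 1 model of 4 group means with eBayes, two-sided, with Benjamini-Hochberg adjustment at 0.05. Array summaries were compared by exact permutation tests. The model was tested on simulated data.

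Named genes were the 10 largest rises and falls over 8.49, the averaged 95th percentile of negative controls, the 5 largest each way among dimmer genes, up to 3 called members of lowest p per list, a fixed list, and the 5 largest interactions, except where stated; predicted genes were passed over. The text gives a selection of the called list members. The members, lists and fixed genes were chosen with earlier results of these data known. Promoters came from RefSeq, and their orientation was checked. Alternatives changed the filter, normalization, summary of probe sets, weights, samples and covariate. The number of arrays, 5 per group, limits the precision.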

Additional observations from a re-analysis of the deposited data

Results flagged for a closer look

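Of 256 sets of 5 mice checked for 1 mouse far from the other 4, 17 stood out, and chance gives about 1 in 20. In PM2.5 with metformin, mouse 2 was lowest for Creld2 (6.38, the others 7.49 to 7.93), Asic5 (4.98, the others 7.33 to 8.03) and G6pc (16.07, the others 16.81 to 17.04), and highest for Per1 (8.39, the others 5.64 to 6.24). Mouse 4 was lowest for Nrg4 (9.32, the others 10.49 to 10.72) and highest for Cyp1a2 (15.69, the others 14.52 to 14.85) and Prkag1 (11.50, the others 11.21 to 11.27). Mouse 5 was highest for P2ry12 (7.62, the others 5.61 to 5.81) and Lrat (10.73, the others 9.13 to 9.52). Mouse 1 was lowest for Zdhhc4 (9.22, the others 10.03 to 10.20) and Scap (9.14, the others 9.74 to 9.83), and mouse 3 highest for Abcc3 (15.60, the others 15.20 to 15.29). In metformin alone, mouse 1 was highest for Gabbr2 (11.07, the others 8.96 to 9.48), mouse 4 highest for Angptl8 (12.48, the others 10.72 to 10.98), and mouse 5 lowest for Lcat (14.28, the others 14.70 to 14.84) and highest for Foxo1 (8.42, the others 8.07 to 8.14). Metformin mouse 2 had the lowest median of the positive controls (9.16, the others 9.40 to 9.46).

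For 11 named genes the particle difference on metformin differed from that without it (limma interaction). The interaction was 3.32 for Fasn, 3.19 for Pnpla3, 3.02 for Angptl8, 2.82 for Acly, -2.80 for Angptl4, 2.29 for Aacs, 1.98 for Anks4b, 1.77 for Gpam, 1.73 for Synrg, 1.72 for Ptprf and 1.34 for Dcaf1. Outside the gene measurements, the median of the positive controls was higher in PM2.5 with metformin than in metformin alone by 0.15 (0.13 without mice 2 and 4), and the part of this in the gene differences was not tested.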

How the results depend on the processing

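The 1935 calls became 1038 in the 10 arrays alone, 1011 with the negative-control median as covariate, 538 with both (added after seeing the data) and 508 without mice 2 and 4 of PM2.5 with metformin. Leaving out 1 mouse gave 1146 to 2414 calls, and 956 genes were called in all 10 such fits. The share of calls that were higher was 59.4%, against 50.3% after quantile normalization, 65.5% with the covariate and 72.8% without mice 2 and 4. The other filters, scalings, probe set summaries, weights and variance options, and a 1.5-fold minimum, gave 1363 to 2029 calls. Of the distinct listed genes 143 were called, against 76 in the 10 arrays alone, 84 with the covariate, 40 without mice 2 and 4 and 41 with covariate and 10 arrays. The 618 calls of PM2.5 against filtered air ranged from 212 to 730 when 1 mouse was left out, and the 22 interactions from 7 to 292; they were 44 with the covariate and 10 without mice 2 and 4. The difference in gene medians was 0.0117 to 0.029 when 1 mouse was left out, and the highest, without metformin replicate 4, passed its test (exact permutation, adjusted p = 0.0238). The cause of these changes was not tested.

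Signs turned only for genes that were not called. Leaving out 1 mouse gave -0.091 to 0.31 for Pnpla3, -0.39 to 0.15 for Angptl8, -0.13 to 0.10 for Aacs, -0.14 to 0.44 for Pdk4, -0.0094 to 0.52 for Cyp7a1, -0.12 to 0.066 for Scd1, -0.047 to 0.35 for Nqo1 and -0.14 to 0.56 for Lcn2. With array weights Pnpla3 was at -0.024, Scd1 at -0.11 and Lcn2 at -0.15, and with centring Scd1 at -0.012. With the covariate Angptl8 was at 0.11, Aacs at 0.038 and Lcn2 at -0.18. With covariate and 10 arrays Angptl8 was at 0.12, Aacs at 0.10, Scd1 at -0.0038 and Lcn2 at -0.18. Without mice 2 and 4 Angptl8 was at 0.37, Aacs at 0.19, Scd1 at -0.00013 and Lcn2 at -0.50. No paired analysis was possible because the labels number each mouse uniquely and the groups share no numbers.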
